A study of Homo sapiens with 8 samples.

Results

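The 35 genes described here belong to homologous recombination, to the Fanconi anaemia pathway and to the DNA damage checkpoint that acts with them. They were chosen by name, and all 35 were found among 49733 Ensembl gene IDs of a poly-A RNA sequencing study of HepG2 cells, a human hepatocellular carcinoma line that keeps many liver enzymes. Cells received 2 µM benzo[a]pyrene (BaP) for 12 h, 2 µM BaP for 24 h, DMSO for 12 h or DMSO for 24 h, with 0.5% DMSO as the vehicle in each case. BaP is a polycyclic aromatic hydrocarbon whose metabolites form bulky adducts on DNA. Each of the 4 groups had 2 libraries, which the labels give as independent experiments. All were of a single cell line. The p-values rest on 1 spread per gene, estimated over all 4 groups and drawn towards that of other genes. They do not measure the spread within any 1 group alone.

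Homologous recombination repairs broken or stalled chromosomes by copying from the sister chromatid. A broken end is resected to a single strand, BRCA2 and its partners act on that strand, and it then finds and invades the matching one. The Fanconi anaemia proteins act on crosslinked and stalled replication forks: a core complex adds ubiquitin to FANCD2 and FANCI, which then guide nucleases and recombination proteins to the lesion. ATM and ATR are the kinases that sense breaks and exposed single-stranded DNA, and they signal through CHEK2 and CHEK1. Many of these proteins are themselves regulated by phosphorylation or ubiquitin, which RNA counts do not measure.

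Total estimated counts per library were 8272319 and 12443348 for BaP 12 h, 13363783 and 14048067 for DMSO 12 h, 2592272 and 16533490 for BaP 24 h, and 11844661 and 5590972 for DMSO 24 h. Replicate 1 of BaP 24 h was thus the shallowest library. The 2 libraries of BaP 24 h also agreed least. Over the 7299 genes with the higher counts, the standard deviation of their log2 difference was 0.323. It was 0.169 for BaP 12 h, 0.245 for DMSO 12 h and 0.177 for DMSO 24 h. CYP1A1, the cytochrome P450 induced through the aryl hydrocarbon receptor, rose with BaP by 7.66 ± 0.24 at 12 h and 7.74 ± 0.28 at 24 h (log2 ± SE), and the p53 targets CDKN1A and MDM2 also rose at both times. HepG2's liver identity was present in the counts: the 8 hepatocyte markers summed to between 17000 and 30400 CPM per library (CPM are depth-scaled read counts), and 1 of the 8, APOB, fell with BaP at both times. CD3E and DCN were at 0 in all libraries, PTPRC reached 0.188 CPM and VWF 0.188 CPM. The leukocyte list summed to between 36.4 and 56.1 CPM, nearly all of it CD68, which rose with BaP at 24 h (0.56 ± 0.13, adjusted p = 0.019), the fibroblast list to between 5.28 and 42.6 CPM, nearly all of it COL1A1, and the endothelial list to at most 3.19 CPM.

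The comparison of BaP with DMSO asked which transcripts differed between exposed and vehicle cells at each time. At 12 h FANCC fell and none of the other 34 genes passed the test. At 24 h RAD51C rose and again none of the other 34 passed. All 35 genes passed the filter on low counts. At 12 h this made 0 genes higher and 1 lower by edgeR's quasi-likelihood test (adjusted p under 0.05 over 14746 genes), where 3.41% of all genes tested were higher and 4.84% lower. At an unadjusted p under 0.05 the numbers were 1 higher, FANCE, and 3 lower, FANCC, CHEK2 and FANCL, beside 9.22% and 10.4% of all genes. DESeq2 called none of the 35 at 12 h. At 24 h 1 was higher and 0 were lower, where 3.11% of all genes were higher and 2.20% lower. At an unadjusted p under 0.05 there was still 1 higher and 0 lower at 24 h, beside 10.8% and 9.20% of all genes, and DESeq2 also called RAD51C alone. One call among 35 is below the 8.25% of all genes called in either direction at 12 h and below the 5.30% called at 24 h.

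Both BaP libraries lay above both DMSO libraries for 9 of the 35 genes at 12 h and below them for 11, where 25.4% and 23.9% of all genes did so. At 24 h these counts were 5 and 11, where the shares of all genes were 23.2% and 24.0%.

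None of the 35 fold changes with BaP reached 2-fold in either direction. At 12 h 19 were positive, beside 52.1% of all genes. The log2 fold changes ran between -0.83 (FANCC) and 0.39 (FANCE), with a median of 0.07, beside 0.02 over all genes. The sign of this median depended on single libraries, since it was -0.06 without BaP 12 h replicate 2 and -0.08 without DMSO 12 h replicate 1. At 24 h 13 were positive, beside 50.6% of all genes. The log2 fold changes ran between -0.43 (FANCC) and 0.91 (RAD51C), with a median of -0.11, beside 0.01 over all genes. For 33 of the 35 genes at 12 h and 32 at 24 h, the 95% interval of the fold change lay wholly inside a 2-fold change either way. Among all genes tested those shares were 72.4% and 69.0%. The width of an interval depends on a gene's counts, and these shares were not matched for counts. The genes whose interval crossed a 2-fold change were FANCC and FANCB at 12 h and RAD51C, FANCM and FANCB at 24 h. Summed over the 35 genes, the libraries held 673 and 719 CPM with BaP against 690 and 741 CPM with DMSO at 12 h, and 604 and 618 CPM with BaP against 629 and 621 CPM with DMSO at 24 h. These sums overlapped between the groups at 12 h and lay close together at 24 h, where both BaP libraries were slightly below both DMSO libraries. The sums weigh FANCA most, which had the highest CPM of the 35. Its mean at 24 h was 96.4 CPM with BaP against 111 CPM with DMSO, so the sums say little about the other genes.

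**Figure D1:**
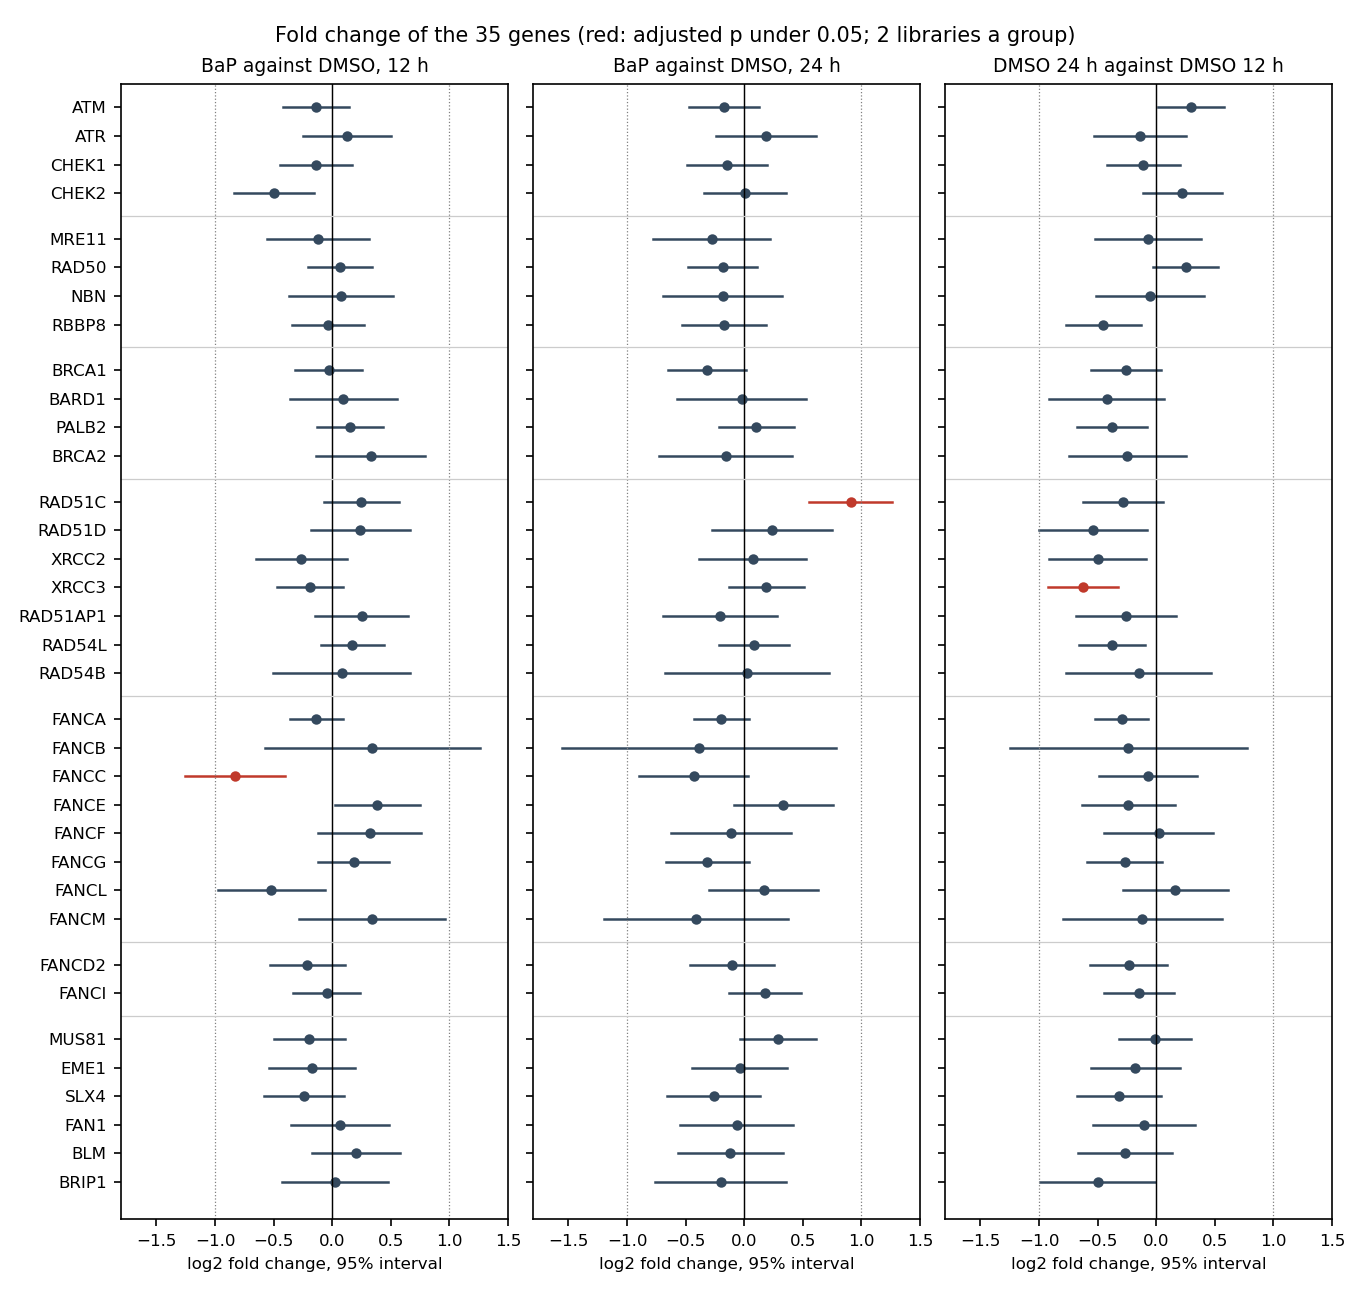
Log2 fold change (x axis) of the 35 genes (rows) with the 95% interval of the fit, for BaP against DMSO at 12 h, BaP against DMSO at 24 h, and DMSO 24 h against DMSO 12 h. From top to bottom the blocks are checkpoint kinases, end resection, BRCA proteins, strand invasion genes, Fanconi core complex with FANCM, FANCD2 with FANCI, and nucleases, scaffold and helicases. Dotted lines mark a 2-fold change, and red marks the 3 values with an adjusted p under 0.05: FANCC at -0.83, RAD51C at 0.91 and XRCC3 at -0.63.

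Among the 7 strand invasion genes 1 rose. RAD51C (ENSG00000108384) encodes a subunit shared by a pair of complexes that assist strand invasion, one with RAD51B, RAD51D and XRCC2, the other with XRCC3. Its promoter is shown here because it belongs to the one gene that rose, and the promoters of FANCC and XRCC3, the genes that fell in a comparison, are given beside it. The windows cover 250 bases before and 50 after the first start that RefSeq lists, are written on the strand of the gene in the 5′ to 3′ direction, and come from GRCh38.p14, at chr17:58692323-58692622 (plus strand) for RAD51C, chr9:95317660-95317959 (minus strand) for FANCC and chr14:103715402-103715701 (minus strand) for XRCC3. Capitals mark matches to any of the motifs named after the sequences.
RAD51C: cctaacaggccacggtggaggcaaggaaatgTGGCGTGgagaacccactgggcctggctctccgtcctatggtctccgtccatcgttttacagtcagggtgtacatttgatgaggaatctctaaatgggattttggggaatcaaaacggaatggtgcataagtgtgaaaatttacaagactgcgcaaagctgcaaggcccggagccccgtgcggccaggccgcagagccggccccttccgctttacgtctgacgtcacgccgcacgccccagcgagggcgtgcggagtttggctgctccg
FANCC: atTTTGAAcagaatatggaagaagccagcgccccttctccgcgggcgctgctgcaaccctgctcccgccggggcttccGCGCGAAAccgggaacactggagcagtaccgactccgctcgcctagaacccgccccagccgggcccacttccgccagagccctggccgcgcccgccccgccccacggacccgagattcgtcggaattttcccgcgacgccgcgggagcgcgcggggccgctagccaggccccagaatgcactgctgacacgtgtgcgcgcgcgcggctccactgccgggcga
XRCC3: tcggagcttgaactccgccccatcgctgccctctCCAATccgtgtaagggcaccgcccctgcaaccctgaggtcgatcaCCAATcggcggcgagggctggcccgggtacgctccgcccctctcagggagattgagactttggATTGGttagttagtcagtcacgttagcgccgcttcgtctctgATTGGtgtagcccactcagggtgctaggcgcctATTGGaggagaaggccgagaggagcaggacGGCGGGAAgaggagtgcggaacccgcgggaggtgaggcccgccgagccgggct
Both strands were searched for the E2F motifs TTTNGCGC and TTCCCGCC, the cell cycle element TTTGAA, the CCAAT box, the aryl hydrocarbon receptor core TNGCGTG, the antioxidant element TGACNNNGC and the p53 half-site. No capitals shown belong to more than 1 motif. RAD51C has 1 match, to TNGCGTG on its plus strand 219 to 213 bases before the start. FANCC has TTTGAA and TTTNGCGC, and XRCC3 has TTCCCGCC across its start and 5 CCAAT boxes. Promoters were found for 32 of the 35 genes. TTCCCGCC was in 8 of these 32 (BLM, BRIP1, FANCD2, FANCL, RAD51AP1, RAD54L, XRCC2 and XRCC3), and in 3.18% of all 27305 promoters. TTTNGCGC was in 2 of 32 and 1.83% of all, CCAAT in 14 of 32 and 35.7%, and TTTGAA in 3 of 32 and 15.4%. TNGCGTG was in 3 of 32 (ATR, RAD51C and RAD51D) and 5.51% of all, TGACNNNGC in 2 of 32 and 13.6%, and the p53 half-site in 1 of 32 (BLM) and 6.54%. A match of letters is a description of the sequence and says nothing about binding.

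RAD51C had 24.8 and 32.8 CPM in the BaP 24 h libraries, against 16.4 and 15.4 CPM in the DMSO 24 h libraries. Both exposed libraries lay above both vehicle libraries, with the deeper one the higher of the pair. The log2 fold change was 0.91 ± 0.17 (SE, n = 2 per group, 95% interval 0.56 to 1.26), with an adjusted p of 0.004. At 12 h RAD51C had 23.4 and 22.9 CPM with BaP against 20.4 and 18.6 CPM with DMSO. The groups did not overlap there either, but the log2 fold change was 0.25 ± 0.15 and did not pass (adjusted p = 0.41). The difference between the responses at 24 h and at 12 h was 0.66 ± 0.23 and did not pass over all genes (adjusted p = 0.30). RAD51C at 24 h did not pass without BaP 24 h replicate 2 (0.63), without DMSO 24 h replicate 1 (0.96) or without DMSO 24 h replicate 2 (0.86). In each of these fits 1 library was left in a group, and fewer of all genes passed as well. It passed without BaP 24 h replicate 1, where more of all genes passed. It did not pass after thinning each library to the smallest total (0.79, adjusted p = 0.066). There 212 of 11681 genes were higher and 150 lower, against 458 and 324 of 14746 in the main fit.

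The RAD51C counts were divided between transcripts of which 3 held at least 10% of them. ENST00000337432, with 41.7% of the gene's counts over all libraries, had 13.9 and 10.6 CPM in the BaP 24 h libraries against 2.36 and 5.87 CPM in the DMSO 24 h libraries. ENST00000421782 had 6.82 and 9.38 CPM with BaP against 5.55 and 2.89 CPM with DMSO at 24 h. ENST00000482007 had 0 and 8.36 CPM with BaP against 4.11 and 4.54 CPM with DMSO at 24 h. The first pair of transcripts thus had both exposed libraries above both vehicle libraries, and the last had exposed libraries on either side of the vehicle ones. As a level corrected for length, RAD51C stood at 38.2 and 38.7 TPM (the deposited share of transcripts, rescaled) in the BaP 24 h libraries and at 25.7 and 18.8 TPM in the DMSO 24 h libraries.

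The other genes of this class did not pass with BaP at either time. RAD51D, XRCC2 and XRCC3 are further subunits of those complexes, RAD51AP1 stimulates strand invasion, and RAD54L and RAD54B are motor proteins that remodel the recombination intermediate. At 12 h the log2 fold changes of the 7 genes of this class ran between -0.26 (XRCC2) and 0.25 (RAD51AP1), with a median of 0.17. At 24 h they ran between -0.20 (RAD51AP1) and 0.91 (RAD51C), with a median of 0.08. At that time 6 of the 7 were positive, beside 50.6% of all genes. XRCC3 (ENSG00000126215) had 25.6 and 27.5 CPM with BaP against 31.9 and 28.7 CPM with DMSO at 12 h, and 21.4 and 22.9 CPM with BaP against 20.1 and 18.9 CPM with DMSO at 24 h. The exposed libraries were below the vehicle ones at 12 h and above them at 24 h, with neither difference past the test (log2 -0.19, adjusted p = 0.50, and 0.19, adjusted p = 0.53). RAD54L had 42.0 and 42.6 CPM with BaP against 38.1 and 37.0 CPM with DMSO at 12 h, and 27.8 and 32.1 CPM against 27.3 and 30.9 CPM at 24 h.

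Among the Fanconi anaemia genes 1 fell. FANCC (ENSG00000158169) encodes a subunit of the Fanconi core complex that binds FANCE and FANCF. It had 5.58 and 7.85 CPM in the BaP 12 h libraries against 11.5 and 12.8 CPM in the DMSO 12 h libraries. All exposed values lay well below the vehicle values. The log2 fold change was -0.83 ± 0.20 (95% interval -1.26 to -0.40, adjusted p = 0.016). At 24 h it had 6.75 and 9.30 CPM with BaP against 12.0 and 11.1 CPM with DMSO. Again the groups did not overlap, but the log2 fold change of -0.43 ± 0.22 did not pass (adjusted p = 0.29), and the 2 responses were not shown to differ (0.40 ± 0.30, adjusted p = 0.73). These are small counts: replicate 1 of BaP 24 h held 18.0 counts of FANCC. The call at 12 h was lost with DESeq2 (adjusted p = 0.11), which called 267 genes higher and 481 lower of 13283. The main fit called 503 and 713 of 14746. It was also lost without BaP 12 h replicate 1 (-0.63) and without DMSO 12 h replicate 2 (-0.77), where fewer of all genes passed as well. ENST00000289081, with 82.1% of the FANCC counts, had 5.04 and 6.90 CPM in the BaP 12 h libraries against 9.70 and 10.4 CPM in the DMSO 12 h libraries, the same order as the gene.

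Of the 8 genes of the core complex with FANCM, the other 7 did not pass, and their fold changes had both signs. FANCL (ENSG00000115392) is its ubiquitin ligase. It had 6.86 and 7.24 CPM with BaP against 8.63 and 11.6 CPM with DMSO at 12 h, and 9.75 and 14.0 CPM with BaP against 12.5 and 9.75 CPM with DMSO at 24 h. The groups were apart at 12 h and overlapped at 24 h. The log2 fold change at 12 h was -0.52 ± 0.22 (adjusted p = 0.18). It passed after a correction for GC content and mRNA length (-0.64, adjusted p = 0.019). That correction called 869 genes higher and 941 lower of 13525, against 503 and 713 of 14746 in the main fit. FANCE, a core subunit that binds FANCD2, had 14.9 and 15.3 CPM with BaP against 12.1 and 11.0 CPM with DMSO at 12 h, the most positive fold change of the 35 at that time, at a log2 of 0.39 that did not pass. FANCG had 23.8 and 25.6 CPM with BaP against 22.1 and 21.5 CPM with DMSO at 12 h, and 12.4 and 15.5 CPM with BaP against 17.7 and 18.8 CPM with DMSO at 24 h. Its exposed libraries were thus above the vehicle at 12 h and below it at 24 h, and the difference between the responses did not pass (adjusted p = 0.48). Over the 8 genes FANCA, FANCB, FANCC, FANCE, FANCF, FANCG, FANCL and FANCM the median log2 fold change was 0.25 at 12 h and -0.25 at 24 h. FANCB and FANCM gave the widest intervals of the 35 in both BaP comparisons: FANCB had 1 count in replicate 1 of BaP 24 h. FANCD2 and FANCI, the pair that receives ubiquitin, had log2 fold changes of -0.21 and -0.05 at 12 h and of -0.10 and 0.18 at 24 h.

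None of the 4 checkpoint kinases passed at either time. ATM (ENSG00000149311), the kinase of the double-strand break response, had 24.8 and 25.6 CPM with BaP against 25.7 and 29.7 CPM with DMSO at 12 h, and 30.8 and 30.0 CPM with BaP against 34.0 and 33.9 CPM with DMSO at 24 h. Both times the exposed libraries were below the vehicle libraries by a small margin, with log2 fold changes of -0.14 (95% interval -0.42 to 0.14, adjusted p = 0.65) and -0.17 (95% interval -0.47 to 0.13, adjusted p = 0.55). ATR (ENSG00000175054), the kinase of stalled forks, had 15.1 and 14.2 CPM with BaP against 11.6 and 15.2 CPM with DMSO at 12 h, and 16.5 and 12.7 CPM with BaP against 12.6 and 11.6 CPM with DMSO at 24 h. Its groups overlapped at 12 h and were barely apart at 24 h, with log2 fold changes of 0.13 (95% interval -0.25 to 0.50) and 0.19 (95% interval -0.24 to 0.61). CHEK1 (ENSG00000149554), which ATR phosphorylates, had 20.2 and 19.8 CPM with BaP against 21.5 and 22.5 CPM with DMSO at 12 h, and 19.5 and 17.9 CPM with BaP against 18.9 and 22.3 CPM with DMSO at 24 h. The exposed libraries were the lower ones at 12 h and overlapped the vehicle at 24 h, with log2 fold changes of -0.14 (95% interval -0.44 to 0.17) and -0.15 (95% interval -0.49 to 0.20).

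CHEK2 (ENSG00000183765), which ATM phosphorylates, came closest to the threshold of the 4 kinases. It had 15.8 and 16.2 CPM with BaP against 21.9 and 23.3 CPM with DMSO at 12 h. The exposed libraries were alike and lay below both vehicle libraries. The log2 fold change was -0.50 ± 0.16 (95% interval -0.84 to -0.16) with an adjusted p of 0.071, and it passed in a fit to the 4 libraries of that comparison (adjusted p = 0.023), without a filter on low counts (adjusted p = 0.036) and after the correction for GC content and mRNA length (adjusted p = 0.025, and 0.016 with a replicate block added). Over all genes at 12 h, the main fit called 503 higher and 713 lower of 14746. The fit to the 4 libraries called 649 and 1000 of 14316, and the fit without a filter 548 and 893 of 26533. The correction called 869 and 941 of 13525, and 892 and 965 with the block added. At 24 h CHEK2 had 21.8 and 29.0 CPM with BaP against 23.9 and 29.4 CPM with DMSO. These groups overlapped almost wholly, with a log2 fold change of 0.01 (95% interval -0.34 to 0.36) whose sign turned under 9 of 12 alternatives, DESeq2's size factors among them. The response at 24 h minus that at 12 h was 0.51 ± 0.23 (adjusted p = 0.50). CHEK2 has pseudogene copies in the genome, and those in the files were listed at 0 counts.

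**Figure D2:**
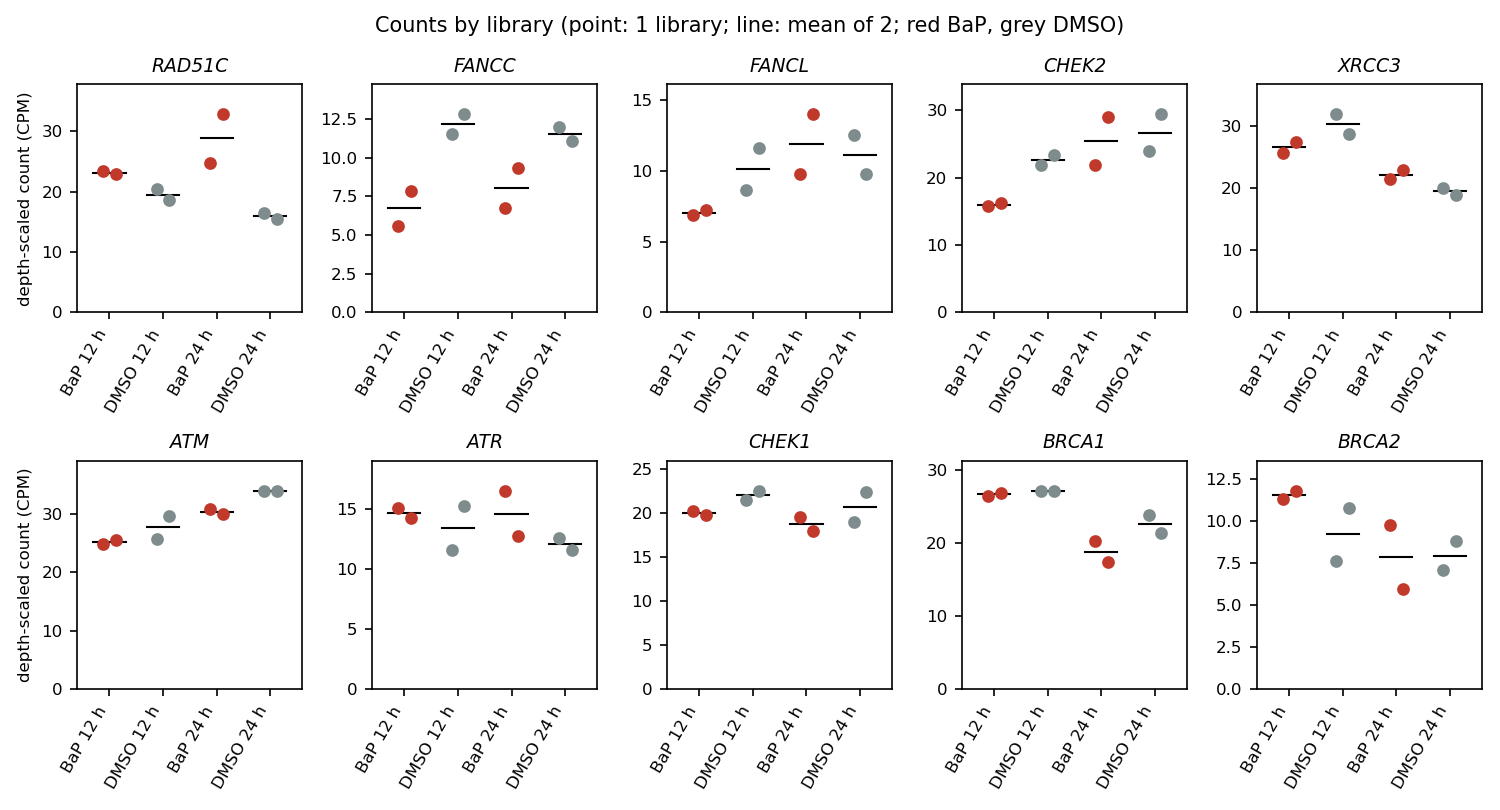
Depth-scaled counts in CPM (y axis, from 0) of 10 genes in each of the 4 groups (x axis), where a point is 1 library, the line is the mean of 2, red is BaP and grey is DMSO. RAD51C is highest in the BaP 24 h libraries at 24.8 and 32.8 CPM, FANCC is lower in BaP than in DMSO libraries at both times, and CHEK2 is lower in BaP libraries at 12 h, at 15.8 and 16.2 CPM against 21.9 and 23.3 CPM.

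The BRCA genes did not pass either. BRCA1 (ENSG00000012048), a ubiquitin ligase that with BARD1 promotes resection and recruits PALB2, had 26.5 and 26.9 CPM with BaP against 27.2 and 27.2 CPM with DMSO at 12 h, and 20.3 and 17.4 CPM with BaP against 23.9 and 21.4 CPM with DMSO at 24 h. The 12 h values were nearly equal and the 24 h exposed values were lower, at log2 fold changes of -0.03 (95% interval -0.32 to 0.26, adjusted p = 0.95) and -0.32 (95% interval -0.65 to 0.01, adjusted p = 0.27). The sign at 12 h turned after the correction for GC content and mRNA length. BRCA2 (ENSG00000139618), which acts on the resected single strand, had 11.3 and 11.8 CPM with BaP against 7.60 and 10.8 CPM with DMSO at 12 h, and 9.75 and 5.95 CPM with BaP against 7.05 and 8.81 CPM with DMSO at 24 h. The exposed libraries were the higher ones at 12 h and spanned the vehicle at 24 h, with log2 fold changes of 0.33 (95% interval -0.14 to 0.79) and -0.16 (95% interval -0.72 to 0.41, sign turned without BaP 24 h replicate 2). PALB2, the bridge between BRCA1 and BRCA2, had 30.3 and 32.8 CPM with BaP against 27.1 and 29.8 CPM with DMSO at 12 h, and 25.9 and 22.4 CPM with BaP against 22.3 and 21.4 CPM with DMSO at 24 h.

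The resection genes did not pass at either time. MRE11, RAD50 and NBN form the complex that binds and trims a broken end, and RBBP8 encodes CtIP, its cofactor. Their log2 fold changes lay between -0.12 and 0.08 at 12 h and between -0.28 and -0.17 at 24 h. At 24 h all 4 were thus negative, where 49.3% of all genes were. For MRE11, RAD50 and RBBP8 both BaP libraries lay below both DMSO libraries, where 24.0% of all genes did so. The fork and junction processing genes are the nuclease subunits MUS81 and EME1, the scaffold SLX4, the nuclease FAN1 and the helicases BLM and BRIP1. They lay between -0.24 (SLX4) and 0.20 (BLM) at 12 h and between -0.26 (SLX4) and 0.29 (MUS81) at 24 h. MUS81 had 16.3 and 17.5 CPM with BaP against 18.7 and 20.0 CPM with DMSO at 12 h, and 24.8 and 22.9 CPM with BaP against 19.2 and 19.3 CPM with DMSO at 24 h. Its exposed libraries were below the vehicle at 12 h and above it at 24 h, and the difference between the responses did not pass (adjusted p = 0.47).

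The difference between the responses at 24 h and at 12 h passed edgeR's test for 0 of the 35 genes, where it passed for 0.543% of all genes tested, and DESeq2 called none. At an unadjusted p under 0.05 there were 4 with the higher value at 24 h, RAD51C, MUS81, FANCL and CHEK2, and 1 with the lower value, FANCG, beside 9.51% of all genes in either direction. The median difference was -0.06, beside 0.01 over all genes, and 24 of the 35 were negative, beside 48.5% of all genes. This lean depended on the setting: without DMSO 12 h replicate 1 the median was 0.01 with 17 negative, and with thinned libraries it was 0.05 with 15 of 34 negative.

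In DMSO alone, XRCC3 was the gene that fell, and most of the other fold changes were negative without passing. XRCC3, which overlaps KLC1 on the opposite strand, had 20.1 and 18.9 CPM in the DMSO 24 h libraries against 31.9 and 28.7 CPM in the DMSO 12 h libraries. These groups lay far apart. The log2 fold change was -0.63 ± 0.14 (adjusted p = 0.021). The call was lost with DESeq2 (adjusted p = 0.065) and with thinned libraries (-0.68, adjusted p = 0.090). It was also lost without DMSO 12 h replicate 1 (-0.55), without DMSO 24 h replicate 1 (-0.68) and without DMSO 24 h replicate 2 (-0.59). With any of these libraries left out, fewer of all genes passed as well. XRCC3 was the 1 gene lower among the 35, with 0 higher, where 1.01% of all genes tested were lower and 2.27% higher. At an unadjusted p under 0.05, 8 were lower and 1, ATM, was higher, beside 7.55% and 8.82% of all genes. The log2 fold changes of 30 of the 35 were negative, beside 49.2% of all genes, with a median of -0.24, beside 0.01 over all genes. Both DMSO 24 h libraries lay below both DMSO 12 h libraries for 17 of the 35 and above them for 3, where 23.3% and 25.3% of all genes did so. The 5 positive genes were ATM, RAD50, CHEK2, FANCL and FANCF. All 7 strand invasion genes were negative, with a median of -0.38, and all 4 BRCA proteins were, with a median of -0.32. So were all 6 nuclease, scaffold and helicase genes, with a median of -0.22, and FANCD2 with FANCI, with a median of -0.19. Leaving out any 1 DMSO library left between 25 and 31 of the 35 negative and a median between -0.29 and -0.14.

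A list of 20 cell cycle genes was set beside this. In DMSO at 24 h against 12 h, 7 of the 20 were lower and none higher, among them CDC6, GINS2 and 5 subunits of the MCM replicative helicase, with a list median of -0.35. Of all genes tested, 1.01% were lower and 2.27% higher, with a median of 0.01. With BaP at 12 h MCM3, MCM6 and PLK1 were lower and RRM2 higher, with a median of -0.22. Of all genes, 4.84% were lower and 3.41% higher at 12 h, with a median of 0.02. With BaP at 24 h MCM2, MCM4 and MCM5 were lower, with a median of -0.23. Of all genes, 2.20% were lower and 3.11% higher at 24 h, with a median of 0.01. The part of cell cycle stage in the values of the recombination genes was not tested.

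Levels between genes can be compared in TPM, which correct for length. In the DMSO 12 h libraries FANCA was the most abundant of the 35 at 34.0 and 33.7 TPM, followed by RAD51C at 27.8 and 25.8 TPM and CHEK2 at 23.8 and 23.1 TPM. RAD54L (17.7 and 14.5 TPM), FANCG (14.4 and 15.4 TPM) and XRCC3 (14.9 and 13.0 TPM) came next and overlapped one another. BRCA1 stood at 8.80 and 8.51 TPM, ATM at 3.86 and 4.26 TPM and BRCA2 at 1.65 and 2.02 TPM. FANCB (0.593 and 0.874 TPM) and FANCM (0.571 and 0.791 TPM) were the lowest and overlapped. At 24 h, RAD51C stood at 38.2 and 38.7 TPM in the BaP libraries, above CHEK2 at 24.2 and 24.1 TPM and FANCA at 21.6 and 20.1 TPM. In the DMSO 24 h libraries the same genes overlapped, with RAD51C at 25.7 and 18.8 TPM, CHEK2 at 23.7 and 27.1 TPM and FANCA at 25.0 and 25.8 TPM. FANCA was thus no longer apart from the other pair in vehicle cells at 24 h. FANCG differed more in TPM than in CPM at 12 h, with 22.5 and 21.9 TPM in BaP libraries against 14.4 and 15.4 TPM in DMSO libraries. TPM depend on how RSEM divides reads between transcripts of different length.

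**Figure D3:**
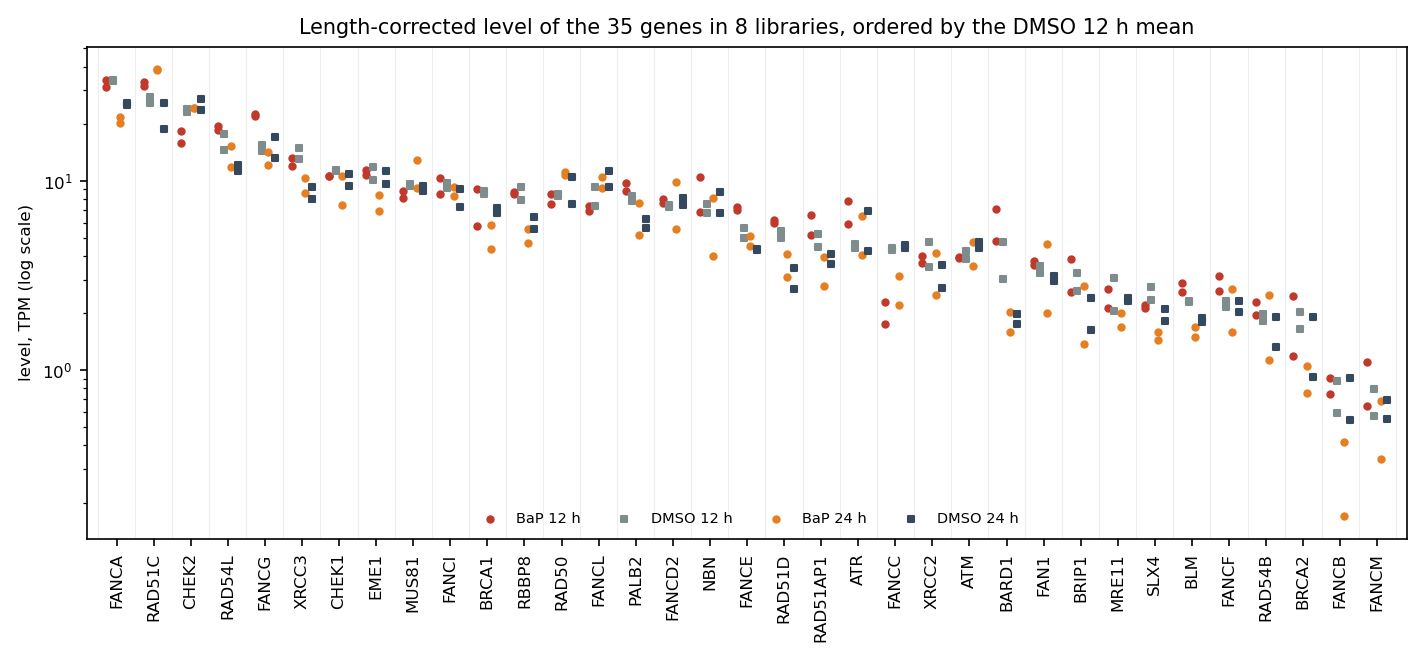
Level in TPM (y axis, log scale) of the 35 genes (x axis, ordered by the mean of the DMSO 12 h libraries) in all 8 libraries, with circles for BaP and squares for DMSO. FANCA stands at the left, at 33.9 TPM as the DMSO 12 h mean, with FANCB and FANCM at the right, at 0.734 and 0.681 TPM, and FANCB spreads between 0.169 and 0.912 TPM over the libraries.

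FANCC is the longest of the 35 genes, with a genomic span of 327.7 kb in GENCODE 29. Among all genes tested, the median log2 fold change at 12 h was 0.07 for spans up to 30 kb, 0.01 between 30 and 100 kb, -0.09 between 100 and 200 kb, -0.29 between 200 and 300 kb, -0.56 between 300 and 500 kb and -0.95 over 500 kb. Over all genes the median thus stepped down with span. At 24 h the medians of the same classes were 0.08, -0.03, -0.09, -0.12, -0.21 and -0.34. Of the 35 genes, 8 were in the shortest class (median 0.21 at 12 h), 20 in the next (0.07) and 5 in the third (0.02). RBBP8, at 228.2 kb, had a log2 fold change of -0.04 at 12 h and was the only one between 200 and 300 kb. FANCC was alone between 300 and 500 kb, and none was longer. Across the 35 genes the fold change and the log10 span had a Pearson r of -0.31 at 12 h and -0.24 at 24 h (Spearman rho -0.20 and -0.30), as a description of genes measured in the same libraries. How far span and function contribute to the value of FANCC cannot be told apart with 1 gene in its class.

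**Figure D4:**
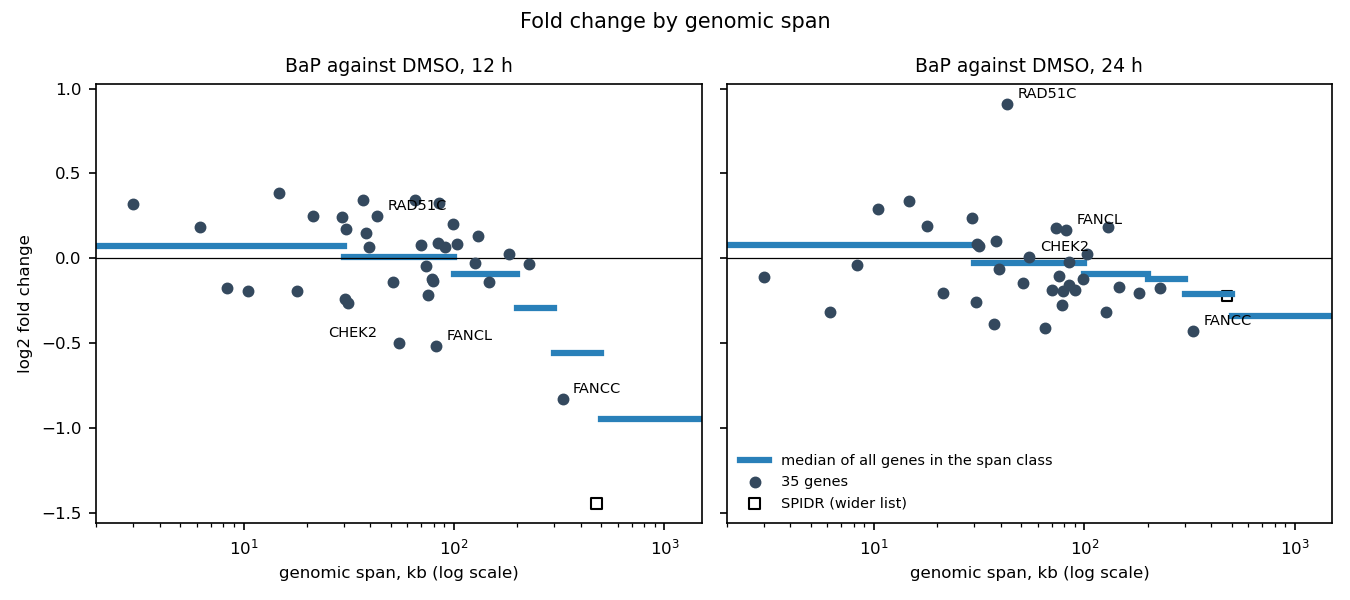
Log2 fold change of BaP against DMSO (y axis) at 12 h and at 24 h against genomic span in kb (x axis, log scale) for the 35 genes (points) and SPIDR (open square), with the median of all genes tested in each span class as a blue line. At 12 h the line steps down to -0.56 between 300 and 500 kb, where FANCC lies at -0.83, and RAD51C stands alone at 0.91 in the 24 h panel.

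Of the 35 genes, 22 had at least 2 transcripts that passed the filter on low counts and each held 10% or more of the gene's counts. None of the 22 changed the shares of its transcripts with BaP at 12 h (0 at an unadjusted p under 0.05) or at 24 h (2 at an unadjusted p under 0.05, RAD51D and FANCL) by edgeR's gene-level F-test, where 0.307% and 0.922% of 6831 genes did, and the Simes test called none. At 24 h BARD1 passed without BaP 24 h replicate 1, and FANCD2 and MRE11 passed without BaP 24 h replicate 2, so this count rested on which BaP 24 h library was used.

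A wider list of 65 genes of recombination, crosslink repair and the checkpoints was matched for 64, of which 63 were tested. At 12 h, 0 were higher (3 at an unadjusted p under 0.05, 0 with DESeq2) and 2 were lower, SPIDR and RAD51B (4 at an unadjusted p under 0.05), with a list median of 0.05. Of all genes tested, 3.41% were higher and 4.84% lower, and 9.22% and 10.4% at an unadjusted p under 0.05. SPIDR (ENSG00000164808), a scaffold protein that binds BLM, had 4.65 and 7.77 CPM with BaP against 16.1 and 18.7 CPM with DMSO at 12 h. Its groups were far apart, with a log2 fold change of -1.45 ± 0.21 (adjusted p = 2.6e-04). RAD51B (ENSG00000182185), a subunit of a complex with RAD51C, had 0 and 2 counts in the BaP 12 h libraries against 23 and 22 counts in the DMSO 12 h libraries. The ratio of the summed counts after scaling for depth was 0.0574, and its exact 95% bounds, which reflect the counting alone, were 0.00674 and 0.220. The adjusted p was 0.0018. At 24 h RAD51B had 1.13 and 1.07 CPM with BaP against 2.80 and 2.63 CPM with DMSO. In replicate 1 of BaP 24 h, 1.13 CPM are only 3 counts. The log2 fold change at 24 h was -1.32 and did not pass. The spans of SPIDR and RAD51B are 475.7 kb and 910.4 kb, in the 2 longest classes above.

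At 24 h, 2 of the 63 were higher, ERCC1 and BABAM1, and 2 were lower, FAAP100 and H2AX, with a list median of -0.06. These counts are near the shares among all genes tested, 3.11% higher and 2.20% lower. ERCC1, a subunit of the nuclease that unhooks crosslinks and cuts at bulky adducts, had 49.1 and 48.8 CPM with BaP against 31.2 and 33.9 CPM with DMSO (log2 0.60 ± 0.14, adjusted p = 0.020). BABAM1, a subunit of the BRCA1-A complex, had 67.2 and 80.6 CPM with BaP against 47.0 and 56.4 CPM with DMSO (log2 0.55 ± 0.14, adjusted p = 0.027). FAAP100, a partner of FANCB and FANCL in the core complex, had 31.1 and 30.0 CPM with BaP against 45.4 and 51.2 CPM with DMSO (log2 -0.66 ± 0.13, adjusted p = 0.0077). H2AX, the histone variant that ATM phosphorylates at breaks, had 121 and 106 CPM with BaP against 160 and 173 CPM with DMSO (log2 -0.56 ± 0.13, adjusted p = 0.016). Of all genes tested, 23.2% had both exposed libraries above both vehicle libraries at 24 h and 24.0% had them below. The 4 genes named here passed the test on these same libraries, and in all 4 the exposed and vehicle libraries did not overlap. None of these calls held without BaP 24 h replicate 2, and none held without DMSO 24 h replicate 2. Without DMSO 24 h replicate 1 only FAAP100 passed. Each of these fits left 1 library in a group, and fewer of all genes passed in them as well. DESeq2 called FAAP100 and H2AX but neither ERCC1 (adjusted p = 0.066) nor BABAM1 (adjusted p = 0.068).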

How the data were processed

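Poly-A RNA of 8 HepG2 cultures was sequenced. Per the submitters' processing notes, the authors aligned reads with Bowtie 0.12.7 and made estimated (expected) counts and fractions with RSEM 1.1.7, on Ensembl release 58, per the names of the deposited files. Symbols were matched to Ensembl IDs in a reference table. The deposited expected counts are not normalised, and the deposited fraction of transcripts is corrected for length and was rescaled to TPM. The genome build and any use of strand are not given in the sources used here. The spans of some genes overlap another gene on the opposite strand (XRCC3 with KLC1, RAD54L with LRRC41, FANCA with ZNF276, FANCI with POLG, MUS81 with CFL1 and EFEMP2, EME1 with LRRC59, FANCL with VRK2, FAN1 with MTMR10, NBN with DECR1, ATM with NPAT, BRCA1 with NBR2, CHEK2 with HSCB, FANCF with GAS2, MRE11 with ANKRD49). On the same strand CHEK1 overlaps STT3A. RAD54B, RAD51D and RAD50 overlap FSBP, RAD51L3-RFFL and AC116366.3 on the same strand, which have no counts of their own here. Whether exons overlap was not examined, so reads of these genes may be shared to an unknown extent. Overlaps of the wider list's genes were not examined.

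Counts were rounded and analysed in R 4.3.3 with edgeR 4.0.16: filterByExpr (minimum count 10, minimum total 15), scaling by trimmed means (TMM), a robust quasi-likelihood fit to all 8 libraries with 1 mean per group, two-sided tests, and Benjamini-Hochberg adjustment over all 14746 genes with a threshold of 0.05. A standard error is the fold change divided by the root of F. Alternatives included DESeq2 1.42.0, a GC and mRNA length correction with mgcv 1.9.3 (13525 genes), thinning to 2592234 counts, and leaving out each library. The tests were tried on simulated data. The genes given for every library are those that passed a test, the 3 with the smallest p per BaP comparison, the checkpoint kinases, BRCA1 and BRCA2, and from the wider list the genes called; FANCE, FANCG, MUS81, PALB2 and RAD54L were added after their values were seen. The 35 genes, the lists and the tests were chosen with earlier results of these data known. Replicate numbers are not said to mark a shared experiment, so the model had no replicate term. Promoters are from RefSeq (GRCh38.p14).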

Additional observations from a re-analysis of the deposited data

How the results depend on the processing

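Calls among the 35 genes were few and moved with the settings. Calls over all genes at 12 h moved as well. The main fit called 503 higher and 713 lower of 14746, DESeq2 267 and 481 of 13283, and thinned libraries 224 and 370 of 11681. Without a filter these were 548 and 893 of 26533, and in a fit to the libraries of the comparison 649 and 1000 of 14316. After GC and length correction they were 869 and 941 of 13525, and 892 and 965 with the replicate block added. With BaP at 12 h, 1 of the 35 was called (FANCC). The count was 0 with DESeq2, 2 without a filter and 2 in a fit to the libraries of the comparison (FANCC and CHEK2), 3 after GC and length correction and 3 with the replicate block added to it (FANCC, CHEK2 and FANCL), and 0 to 1 when 1 library was left out. At 24 h, 1 was called (RAD51C), against 0 with thinned libraries. Of all genes at 24 h, 458 were higher and 324 lower of 14746, against 212 and 150 of 11681 thinned. With 1 library left out, the RAD51C call was lost in some fits, and calls over all genes moved as well. The count for the difference of responses stayed at 0 throughout (0 to 0 when 1 library was left out). In DMSO over time, 1 was called (XRCC3), against 0 with DESeq2, 0 thinned, 2 after GC and length correction and 2 with the block added (XRCC3 and RBBP8). Of all genes, 334 were higher and 149 lower of 14746, against 282 and 108 of 10830 with DESeq2 and 194 and 63 of 11681 thinned. They were 587 and 449 of 13525 after the correction, and 610 and 468 with the block added. With 1 library left out, the XRCC3 call was lost in some fits. Of the wider list, 2 were called at 12 h, against 6 after the correction, 6 with the block added and 1 thinned (RAD51B could not be tested there), and 4 at 24 h, against 2 with DESeq2, 2 in the libraries of the comparison and 0 to 7 when 1 library was left out. Transcript usage at 24 h gave 0 to 2 when 1 library was left out.

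Some small fold changes turned sign. CHEK2 at 24 h was 0.01, and -0.035 with DESeq2, -0.004 with its size factors, -0.025 after the correction, -0.075 with the block added, -0.019 without a filter, -0.033 with the replicate block alone, -0.095 thinned, -0.16 without DMSO 24 h replicate 1, within a range of -0.28 (without BaP 24 h replicate 2) to 0.14 when 1 library was left out. BRCA1 at 12 h was 0.062 after the correction and 0.068 with the block added. BRCA2 at 24 h ranged between -0.38 and 0.33 (without BaP 24 h replicate 2), ATR at 12 h between -0.046 (without DMSO 12 h replicate 1) and 0.32, and CHEK1 at 24 h was 0.19 thinned. The cause of these changes was not tested.

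With a replicate block, 1 of the 35 was called at 12 h, 1 at 24 h and 1 in DMSO over time, the same genes as without it. Same-numbered libraries deviated together at 12 h (correlation 0.424 between BaP and DMSO over 7299 genes) and hardly at 24 h (0.064) or between the DMSO groups (-0.039). Between the BaP groups they deviated in opposite directions (-0.239), and the numbers were not taken as pairs. Depth limits FANCB, RAD54B and FANCM most, the 3 genes with the fewest counts, and replicate 1 of BaP 24 h, where 3 counts, the most that a count of 0 allows, are 1.13 CPM.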
